A study of Mus musculus with 28 samples.

Results

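Sox9, Ptgds, Clu, Dhh, Cst9 and Aard, 6 genes known from Sertoli cells, the somatic cells of the testis cords, were followed through 14 groups of mouse germ cell and testis samples. They were found by symbol, through the RefSeq accession that the array gives each probe. No expression value was used to find them, but they were chosen with earlier results of these data known. They carried 9 of the 43289 probes kept on the array and made 6 of its 38727 genes, a word used here for 1 symbol or 1 unnamed probe accession. The highest-mean probe stood for each gene, and Sox9 alone had more than 1 probe (4 of them).

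The study's title concerns DNA methylation in primordial germ cells (PGC), from which the egg and sperm lineages arise, and the data used here are 28 single-colour Agilent expression arrays, 2 per group. PGC of females and males at 10.5 days of gestation (E10.5), 13.5 (E13.5) and 17.5 (E17.5) came from the cross BDF1 x TgN(deGFP)18Imeg. Oogonia (female) and spermatogonia (male), at a stage that the labels do not give, came from BDF1 x Tg(Mvh-Venus)1Rbrc. Female and male EG cells, lines derived from PGC, were Rb(X.2)2Ad X 129/Sv, and their source field names PGC of 12.5 days. Female ES cells were line no5 of strain 129/Sv, and male ES cells were line TMA5, an F1 hybrid of TgN (deGFP)20Imeg and MSM/Ms. GS cells, cultured germline stem cells of the male, were DBA/2, and adult testis was C57BL/6J. Each line stands for 1 derivation, strain differs between most of these groups, and the labels give neither how cells were sorted nor whether feeder cells were used. They also leave unsaid whether both arrays of a group hold RNA of different animals or cultures, so every p-value below measures the spread between these samples alone, which may be technical.

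In the fetal testis, somatic precursors turn into Sertoli cells under SRY and its target SOX9, close round the germ cells and signal to both germ and interstitial cells. Ovarian somatic cells follow another path, led by WNT4 and FOXL2, in which Sox9 is kept low. The 6 genes span that programme, from the transcription factor Sox9 through the ligand Dhh (desert hedgehog) and the prostaglandin D2 synthase Ptgds to the secreted chaperone Clu (clusterin), the cystatin family member Cst9 and Aard, a gene of alanine and arginine rich sequence whose function is little described.

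The genes lie on chromosomes 11 (Sox9), 2 (Ptgds and Cst9), 14 (Clu) and 15 (Dhh and Aard), and no pair of them are neighbours in the RefSeq gene table. The 250 bases before the RefSeq gene start of the 3 members with an entry are shown (assembly GRCm38.p6, 5′ to 3′ on the gene's strand). They are chr2:25469750-25469999, minus strand, for Ptgds, chr15:98898541-98898790, minus strand, for Dhh and chr2:148834897-148835146, plus strand, for Cst9.
Ptgds: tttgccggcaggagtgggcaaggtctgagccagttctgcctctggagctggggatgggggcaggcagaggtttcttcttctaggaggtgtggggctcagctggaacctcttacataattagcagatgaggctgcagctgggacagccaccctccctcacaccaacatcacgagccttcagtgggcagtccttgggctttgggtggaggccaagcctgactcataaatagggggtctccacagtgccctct
Dhh: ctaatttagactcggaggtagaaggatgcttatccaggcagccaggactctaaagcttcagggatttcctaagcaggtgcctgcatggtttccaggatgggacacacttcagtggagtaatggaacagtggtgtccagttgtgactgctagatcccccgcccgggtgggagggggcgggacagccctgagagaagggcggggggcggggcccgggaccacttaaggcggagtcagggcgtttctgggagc
Cst9: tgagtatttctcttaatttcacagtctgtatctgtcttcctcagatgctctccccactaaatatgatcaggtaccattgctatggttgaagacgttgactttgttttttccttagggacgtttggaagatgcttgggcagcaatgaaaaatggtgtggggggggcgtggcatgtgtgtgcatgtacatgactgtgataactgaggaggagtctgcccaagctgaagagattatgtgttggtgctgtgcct
GC content was 58.4% for Ptgds, 59.6% for Dhh and 45.6% for Cst9. These windows were searched on both strands for 4 short motifs, and the share with a match was counted over 32851 mouse promoter windows of the same length. The motif AACAAT, for SOX proteins, was found in 9.42% of all windows. The motif AAGGTCA, for the nuclear receptor SF1, was found in 4.08% of them. For GATA factors AGATAA was searched, with a share of 9.99%. The TATA box was searched as TATAAA, with a share of 12.4%. None of the 4 was found in the 3 windows shown, so no base is in capitals.

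Levels are log2 processed signal minus the 75th percentile of the array, taken over 7227 probes that all arrays called well above background (the scanner software's own call). A level of 0 is therefore that percentile, and levels are compared between samples for 1 probe, never between genes. The share of probes well above background ran from 17.8% to 76.7% per array, lowest on the replicate 1 arrays at E10.5 and highest in testis and GS. Precision is limited by having 2 arrays per group. PGC replicate 1 was scanned on scan day 1 and replicate 2 on scan day 2, while every other group lay on 1 slide. The germ cell list was measured throughout the PGC, with at least 8 of 9 genes well above background on each array. Ddx4, a germ cell RNA helicase, lay between 0.02 and 1.06 on the 8 arrays of E13.5 and E17.5 PGC. It read 1.19 and 1.24 in whole testis, and the list was measured in EG and ES cells too. These values therefore do not measure somatic carry-over. In adult testis all 18 other Sertoli genes on the array and all 5 Leydig genes were well above background. These are bulk samples, in which fewer cells of a type and less RNA per cell cannot be told apart.

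Sox9, which drives Sertoli cell differentiation, was brightest in male PGC at E17.5, at -0.91 and -1.42. It stood at -2.69 and -3.76 in male PGC at E13.5 and at -7.83 to -8.35 in females of that stage, where 1 of 2 arrays was well above background. In E17.5 females it was not well above background on either array (-7.17 and -7.01). Males and females did not overlap at either stage, and at E10.5 both sexes were dim, at -5.82 and -5.54 in males and -6.09 and -6.86 in females, each with 1 array of 2 well above background. Spermatogonia (-3.19 and -3.46), testis (-3.60 and -3.74) and GS cells (-4.25 and -4.55) followed the E13.5 males in order, and oogonia lay at -7.53 and -7.77. Of all neighbouring groups in the order of Sox9 means, E17.5 and E13.5 male PGC alone differed by more than 2 standard errors (SE) of the difference. Its second probe moved alike, at a mean of -1.86 (SD 0.19, n = 2) in E17.5 males and -7.87 (SD 0.19, n = 2) in E17.5 females. The third was dimmer (-4.32 against -8.31), and the fourth was well above background in neither sex at E17.5 and did not separate them (-8.36 against -8.22).

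Dhh, a hedgehog ligand that Sertoli cells send to Leydig cell precursors and the peritubular cells, was well above background on 7 of 28 arrays. These were both E17.5 male PGC arrays (-3.19 and -3.58), 1 E13.5 male array (-5.08, the other being -5.68), both testis arrays (-6.22 and -6.19) and both GS arrays (-8.87 and -9.68). No female PGC, oogonia, EG or ES array measured it, and neither did spermatogonia (-7.20 and -7.85). Only the step from E17.5 males to E13.5 males exceeded 2 SE in the order of its means.

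Ptgds, the enzyme that makes prostaglandin D2, a signal known to act on Sox9 in the fetal gonad, was highest in testis (1.26 and 1.05). It read 0.59 and -1.01 in E17.5 male PGC, -1.55 and -2.60 in E13.5 male PGC and -3.50 and -3.54 in spermatogonia. On 1 of the 6 female PGC arrays it was well above background (E17.5 replicate 2, -6.05), the others reading -6.57 to -9.66. Oogonia stood above those, at -4.60 and -5.44 and well above background on both arrays. GS cells had no array well above background (-9.69 and -10.43). No 2 neighbours in the order of Ptgds differed by more than 2 SE.

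Clu, a secreted chaperone abundant in Sertoli cells, was measured on 27 of 28 arrays and so shows the low groups as well as the high ones. Testis stood at 1.94 and 1.93, E17.5 male PGC at 1.62 and 0.66, E13.5 male PGC at -1.17 and -2.26 and spermatogonia at -1.72 and -1.81. E13.5 females were lowest of the PGC (-5.79 and -5.37), while E17.5 females stood at -3.83 and -2.85. Oogonia read -4.15 and -4.16. The GS arrays disagreed, at -2.29 and -5.28. In the order of its means the steps from E17.5 to E13.5 males and from spermatogonia to E17.5 females exceeded 2 SE.

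Cst9, a cystatin family member of the testis, was measured on 17 of 28 arrays. Testis read 1.77 and 1.73, E17.5 male PGC 1.21 and -0.02 and E13.5 male PGC -0.20 and -1.75. No female PGC array measured it (-6.97 to -9.96), and neither did GS cells (-12.03 and -12.71). Spermatogonia lay between, at -2.53 and -2.77, and oogonia at -6.89 and -7.26. A gap above 2 SE parted spermatogonia from the E10.5 males next below them, which read -5.68 and -6.33 with 1 of 2 arrays well above background. Another parted female ES cells from GS cells, the lowest group, where its size is not measured.

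Aard was measured on 27 of 28 arrays. Testis was highest (-0.50 and -0.11) and GS cells lowest (-8.26 and -7.91), both parted from their neighbours by more than 2 SE. Male PGC stood at -3.00 and -3.29 at E10.5, -1.74 and -2.54 at E13.5 and -1.12 and -2.06 at E17.5. Female PGC stood at -2.69 and -3.51, then at -4.14 and -4.34, then at -6.62 (not well above background) and -4.90, so the sexes overlapped at E10.5 and not later. Spermatogonia (-4.05 and -3.98) lay in the range of the EG and ES lines (-3.29 to -4.40), unlike their place for the other members.

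**Figure D1:**
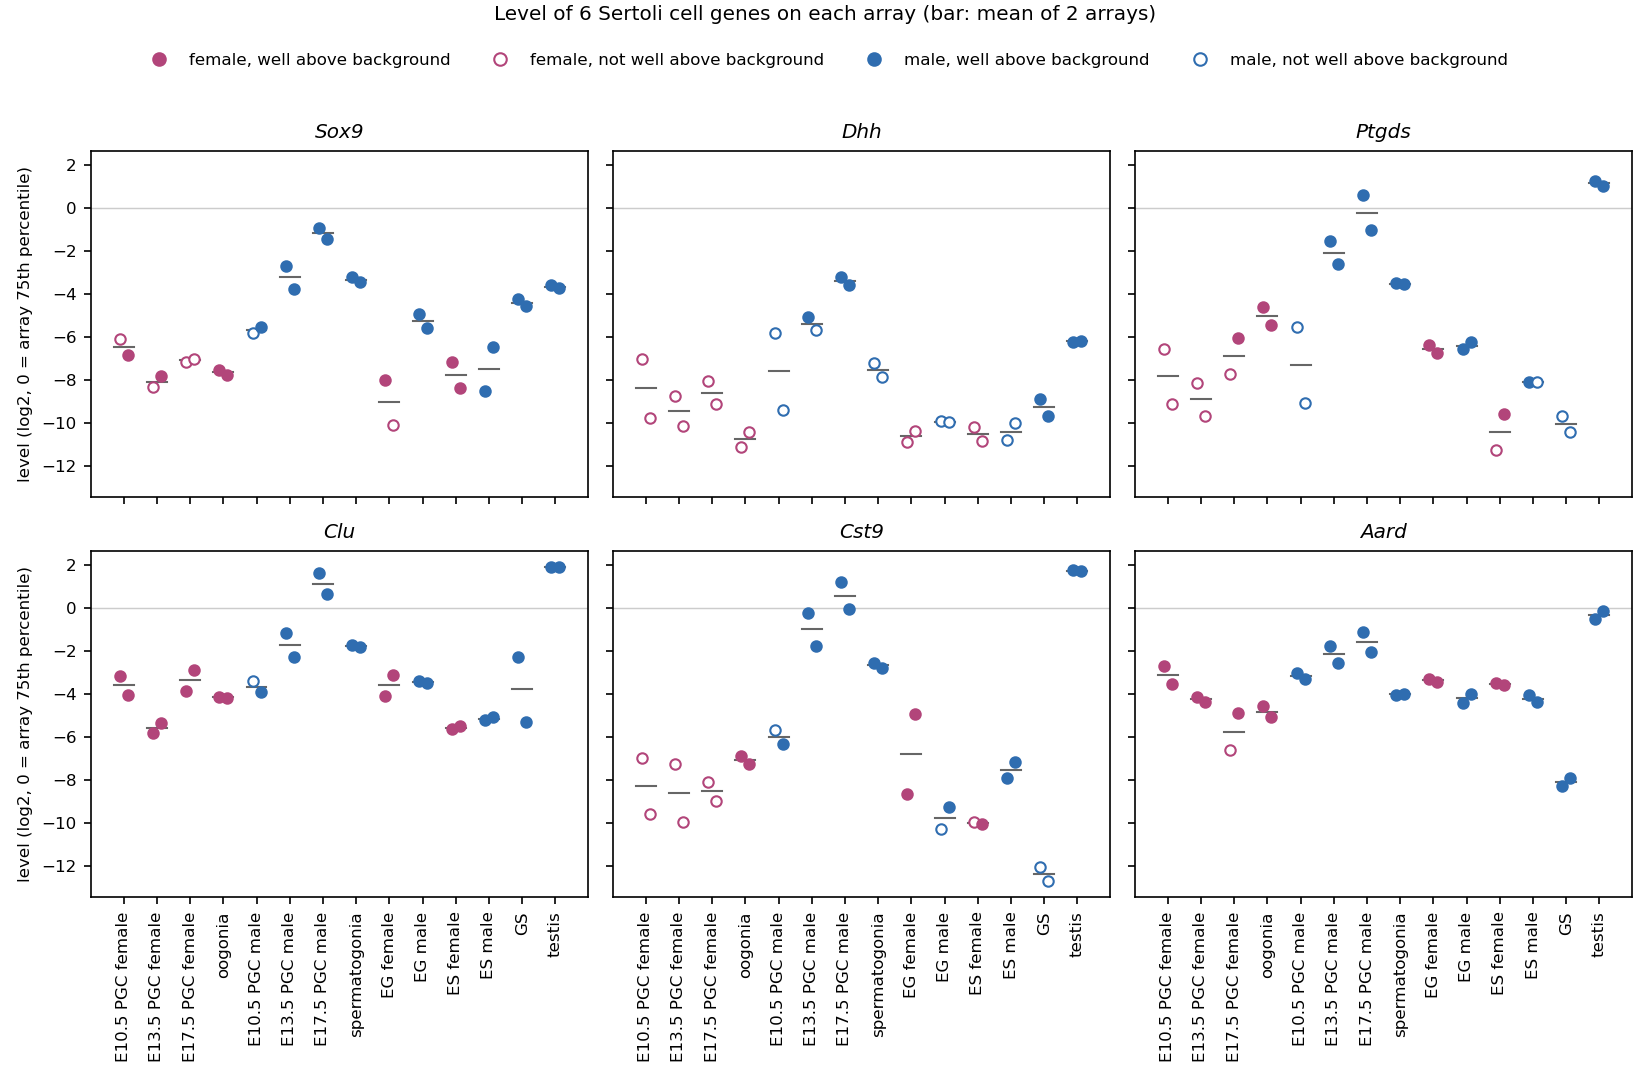
Level of each of the 6 genes on every array (vertical axis: log2, with 0 at the array's 75th percentile; horizontal axis: the 14 groups), with open circles where the probe was not well above background and a bar at the mean of 2 arrays. Male PGC at E13.5 and E17.5 stand above female PGC of the same stage in all 6 panels, and testis is highest for Ptgds, Clu, Cst9 and Aard while E17.5 male PGC are highest for Sox9 and Dhh.

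The first comparison asked at which stage male and female PGC differed in these genes. Each difference comes from 1 limma fit of all 28 arrays, with SE, and Benjamini-Hochberg adjusted p under 0.05 was called. A gene was tested where 1 or both of the compared groups had its probe well above background on both arrays, so a member measured in the bright group alone could enter only as a difference. Where 1 side had no array well above background, the bound "at least N-fold" compares the mean of the bright group with the higher of the dim probe's own value and the lowest signal that counted as well above background on each array.

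At E10.5 neither of the 2 members that could be tested was called. Sox9, Ptgds, Dhh and Cst9 were too dim to be tested. Of these, Cst9 was well above background on 1 male array and read at least 1.17-fold higher in males. Sox9, well above background on 1 array of each sex, stood higher on both male arrays. On slide 1 neither sex measured Sox9, and 18.3% of all tested genes did not overlap between the sexes. Clu differed by -0.06 ± 0.69 and Aard by -0.05 ± 0.48 (male minus female, log2 ± SE), with limma adjusted p of 1 for both. Neither passed an unadjusted 0.05, and over all genes 0.0114% were called (1 of 8741, with 117 at unadjusted p under 0.05).

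At E13.5 all 5 tested members were higher in males, in a comparison that called 4.43% of 13782 genes as higher. Sox9 was higher by 4.86 ± 0.67 (limma adjusted p = 0.000241), Clu by 3.87 ± 0.69 (adjusted p = 0.00187) and Aard by 2.10 ± 0.48 (adjusted p = 0.00954). Ptgds was at least 36.2-fold higher (adjusted p = 0.000483) and Cst9 at least 77.7-fold higher (adjusted p = 0.000259). Dhh, measured on 1 male array, was at least 3.68-fold higher and was not tested. The median over the 5 tested members was 4.86 against -0.13 over all genes tested, which moved to -1.18 in the deposited value table. Within a slide the male array exceeded the female array by 4.62 (slide 1) and 3.11 (slide 3) for Clu and by 2.40 and 1.81 for Aard. Sox9 was at least 14.5-fold higher in males on slide 1 and higher by 4.07 on slide 3, where both arrays measured it. The bounds were 31.9-fold and 41-fold for Ptgds and 81.6-fold and 74-fold for Cst9. Dhh was at least 2.78-fold higher on slide 1 and was measured in neither sex on slide 3. The 5 tested genes were thus higher in males on both slides, beside 59.3% of all tested genes that did not overlap between the sexes. With slide as a block on PGC arrays limma called 0 of the 5 and 6 genes in all (2700 at unadjusted p under 0.05), and with these 4 arrays fitted alone 0 members and 0 genes (1264 at unadjusted p under 0.05). Aard was also lost without either female array (2.21 and 2.00 without replicates 1 and 2).

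By E17.5 all 6 members were tested and all 6 were higher in males, where 29.4% of 16124 genes were called as higher and 78.6% did not overlap. Of the transcription factor and the ligand, Sox9 was at least 38.6-fold higher in males (adjusted p = 5.23e-06 by limma) and Dhh at least 8.3-fold (adjusted p = 0.000308), and the secreted Cst9 at least 131-fold (adjusted p = 6.87e-06). Ptgds was higher by 6.69 ± 1.02 (adjusted p = 7.22e-05), Aard by 4.17 ± 0.48 (adjusted p = 6.08e-06), both with 1 of 2 female arrays well above background, and Clu by 4.48 ± 0.69 (adjusted p = 8.17e-05). With the 3 bounded genes at their bound the median of the 6 was 4.88, against 0.27 over all genes tested. The count stayed at 6 in each of the 18 alternatives that were run for it. Within slides 3 and 4 the male array exceeded the female array by 3.52 and 5.45 for Clu. Ptgds was higher by 5.03 on slide 3 and at least 87.8-fold on slide 4, and Aard by 2.84 on slide 3 and at least 26.9-fold on slide 4. The bounds on slides 3 and 4 were 48-fold and 31-fold for Sox9, 10.8-fold and 6.37-fold for Dhh and 128-fold and 134-fold for Cst9.

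**Figure D2:**
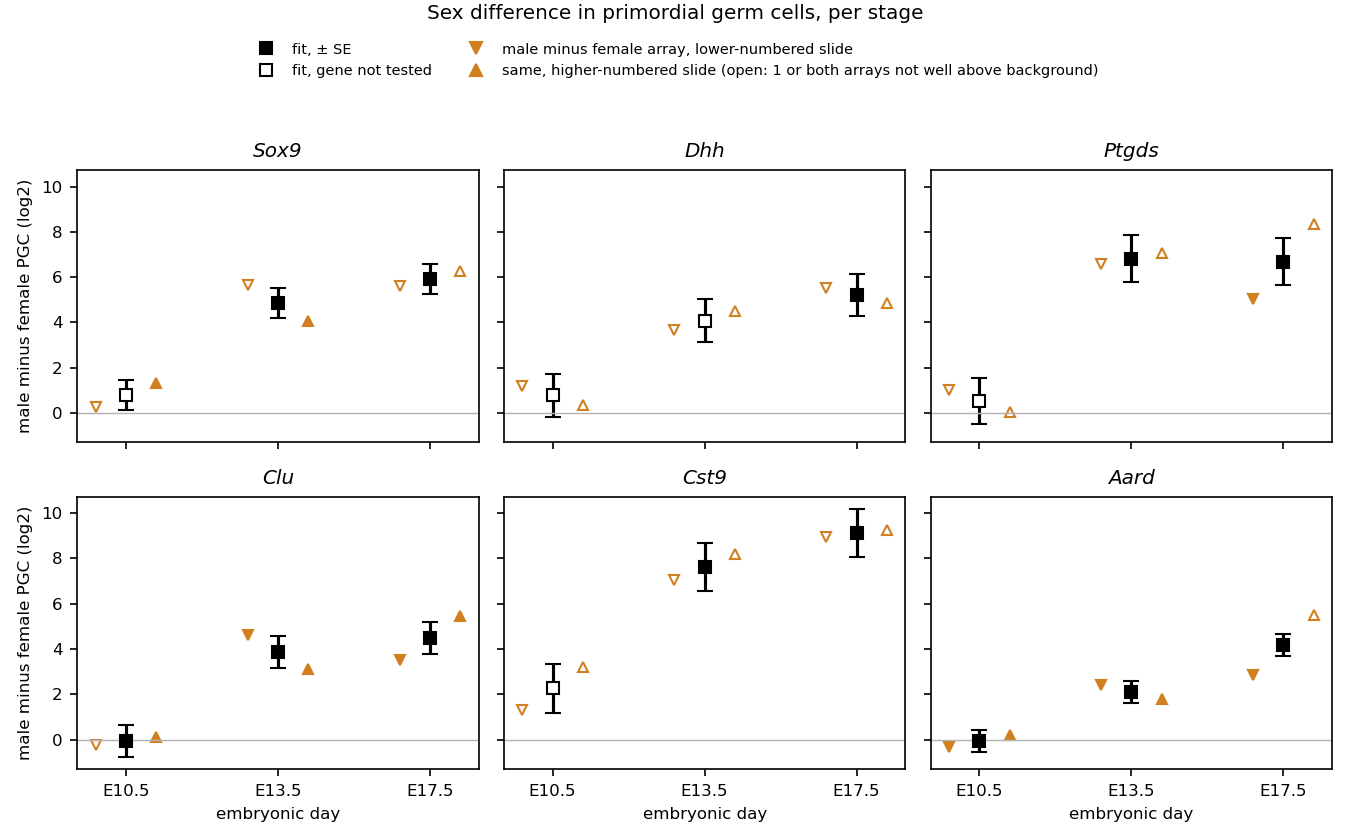
Male minus female PGC (vertical axis, log2) at E10.5, E13.5 and E17.5 (horizontal axis) for each gene, with squares and bars for the limma estimate ± SE (open where the gene was not tested) and triangles for the male and female array of 1 slide. Open triangles, where 1 or both arrays were not well above background, have no measured size. The E10.5 values of Clu and Aard sit near 0, and at E13.5 and E17.5 every filled triangle lies above 0.

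The change of the sex difference between stages was tested directly. From E10.5 to E13.5 limma called it as larger for 3 members, where 0.77% of 13892 genes were called with a growing difference. For Clu, measured on 7 of the 8 arrays, the change was 3.92 ± 0.98 (adjusted p = 0.044). The fitted changes of Sox9 (4.07 ± 0.95, adjusted p = 0.0326) and Ptgds (6.29 ± 1.44, adjusted p = 0.0296) are no measured sizes, since 3 of the 4 groups had 1 of 2 Sox9 arrays, and 3 of the 4 had no Ptgds array, well above background. Aard (2.15 ± 0.68, adjusted p = 0.107) and Cst9 (adjusted p = 0.0693) were not called and Dhh was not tested. Leaving out 1 array ended calls in most cases. The count of 3 fell to 0 without E13.5 male replicate 1, either E13.5 female array or E10.5 female replicate 1, and to 1 without E13.5 male replicate 2 or E10.5 male replicate 1. With normexp background correction, no filter, slide as a block or these arrays alone it was 0. From E13.5 to E17.5 only Aard was called, with a sex difference larger by 2.07 ± 0.68 (adjusted p = 0.0343), 1 of 2 E17.5 female arrays being well above background, where 16.3% of genes were called with a growing difference. That call was lost without E17.5 replicate 1 of either sex (1.60 without the male, 1.21 without the female), without E13.5 male replicate 2 (1.67) and without E13.5 female replicate 1 (1.97) or 2 (2.17). It was also lost with normexp, no filter, a common floor, the percentile over all probes, the deposited table, slide as a block and these arrays alone. The other 5 members had adjusted p of 0.444 to 0.957, and all of these but Clu had a female group with no array well above background.

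Followed within males, 3 of 5 tested members rose from E10.5 to E13.5, against 10.7% of all genes. Ptgds rose at least 9.92-fold (limma adjusted p = 0.00247), Cst9 by 5.03 ± 1.07 (adjusted p = 0.0044) and Sox9 by 2.46 ± 0.67 (adjusted p = 0.0201), the last 2 from groups with 1 of 2 arrays well above background. Clu (1.94 ± 0.69, adjusted p = 0.0674) and Aard (1.01 ± 0.48, adjusted p = 0.17) did not pass. Without E13.5 male replicate 1, Ptgds alone was called, and Sox9 was also lost without E10.5 male replicate 1. From E13.5 to E17.5, where 29.5% of genes rose, Clu rose by 2.85 ± 0.69 (adjusted p = 0.00402) and Sox9 by 2.06 ± 0.67 (adjusted p = 0.0227). The differences of Ptgds (1.87), Dhh (1.99), Cst9 (1.57) and Aard (0.55) had adjusted p of 0.149, 0.0976, 0.246 and 0.37. Sox9 was lost without E17.5 male replicate 1 (1.80) or 2 (2.31) and without E13.5 male replicate 2 (1.53). Both steps held 0 called members with slide as a block or with the compared arrays alone, and the first also with normexp.

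In females 2 members were bright enough to test. Clu fell by 1.98 ± 0.69 from E10.5 to E13.5 (limma adjusted p = 0.0453) and rose by 2.24 ± 0.69 from E13.5 to E17.5 (adjusted p = 0.0214), and Aard fell by 1.52 ± 0.48 over the second interval (adjusted p = 0.0242) after a difference of -1.14 ± 0.48 over the first (adjusted p = 0.0911). Over all genes 7.22% fell in the first interval, and 18.1% rose and 14.5% fell in the second. The first Clu call was lost without any 1 of its 4 arrays (-1.56 to -2.41), the second without E17.5 female replicate 2 (1.75) or E13.5 female replicate 1 (2.02) or 2 (2.45), and that of Aard without E17.5 female replicate 1 (-0.66) or E13.5 female replicate 1 (-1.42) or 2 (-1.62). With slide as a block, normexp or the compared arrays alone 0 members were called in either interval.

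Spermatogonia were lower than E17.5 male PGC in 5 of 6 tested members, where 6.81% of genes were called as lower and 73% did not overlap. Aard was lower by 2.43 on the log2 scale (-2.43 ± 0.48, limma adjusted p = 0.00622), Dhh was at least 10.6-fold lower (adjusted p = 0.0117) and Clu differed by -2.91 ± 0.69 (adjusted p = 0.0148). Ptgds (-3.31 ± 1.02, adjusted p = 0.0452) and Sox9 (-2.16 ± 0.67, adjusted p = 0.0474) lay just inside the threshold and Cst9 (-3.24 ± 1.07, adjusted p = 0.0581) just outside it. The count was 0 without spermatogonia replicate 1 or E17.5 male replicate 1, 1 without spermatogonia replicate 2 and 2 without E17.5 male replicate 2, and 0 with slide as a random block or the 4 arrays alone. Strain, slide and scan day differ between these groups and cannot be told apart from the cell type, and the comparison shares its E17.5 arrays with the sex difference above.

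Oogonia and E17.5 female PGC gave 0 called members of 5 tested with limma (0 at unadjusted p under 0.05, with 2545 of 17027 genes, 14.9%, called and 5277 at unadjusted p under 0.05). Their differences ran from -0.81 for Clu to 1.88 for Ptgds. Here too strain, slide and scan day differ and cannot be told apart from the cell type. Aard was called without E17.5 female replicate 2 (1.80). Spermatogonia exceeded oogonia for 3 of 5 tested members, with 30.7% of genes called as higher. Sox9 was higher by 4.33 ± 0.67 (limma adjusted p = 7.89e-05), Cst9 by 4.42 ± 1.07 (adjusted p = 0.00285) and Clu by 2.39 ± 0.69 (adjusted p = 0.00973, lost without oogonia replicate 2 at 2.39). Ptgds (1.51 ± 1.02, adjusted p = 0.243) and Aard (0.81 ± 0.48, adjusted p = 0.187) did not pass, and each group lay on 1 slide of its own. The count was 1 with slide as a random block or a common floor.

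GS cells, grown in culture, differed from spermatogonia in 4 of 6 members, all lower, with 12.3% of genes called as lower. Cst9 was at least 196-fold lower (limma adjusted p = 1.46e-05) and Ptgds at least 93.3-fold lower (adjusted p = 0.000305). Aard differed by -4.07 ± 0.48 (adjusted p = 3.07e-05) and Clu by -2.02 ± 0.69 (adjusted p = 0.0456). The Clu call rested on the lower GS array, since without GS replicate 2 the difference was -0.53, and it was also lost without spermatogonia replicate 1 (-1.97) or 2 (-2.06). Sox9 did not pass (-1.07 ± 0.67, adjusted p = 0.283), and neither did Dhh (-1.75 ± 0.94, adjusted p = 0.201). With a common floor for all arrays, which hides dim values, the count was 0. The 2 groups differ in strain, slide and scan day, which cannot be told apart from the cell type.

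Adult testis, which holds Sertoli cells, was measured on the same slide as GS cells but came from another strain. Testis exceeded GS cells for 5 of 6 members, with 26.8% of genes called as higher. Cst9 was at least 4140-fold and Ptgds at least 2380-fold higher (limma adjusted p = 4.32e-08 and 2.71e-07), Aard was higher by 7.78 ± 0.48 (adjusted p = 6.87e-09), Clu by 5.71 ± 0.69 (adjusted p = 4.8e-06) and Dhh by 3.07 ± 0.94 (adjusted p = 0.0131). Dhh was lost without testis replicate 1 (3.09) or 2 (3.06) and without GS replicate 2 (2.67). Sox9 was the member that did not differ beyond the error (0.73 ± 0.67, adjusted p = 0.406). Testis also exceeded spermatogonia for 4 of 6 members, with 24.7% of genes called as higher, namely Ptgds (4.67 ± 1.02, adjusted p = 0.00129), Clu (3.69 ± 0.69, adjusted p = 0.000366), Cst9 (4.40 ± 1.07, adjusted p = 0.00289) and Aard (3.71 ± 0.48, adjusted p = 1.11e-05). Sox9 (-0.34 ± 0.67, adjusted p = 0.735) and Dhh (at least 1.51-fold higher, adjusted p = 0.283) did not pass, Dhh reading lower in testis with normexp (-1.55, adjusted p = 0.0108). With slide as a random block 2 members were called. Testis and spermatogonia also differ in strain, slide and scan day, which cannot be told apart from the sample type.

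Set against the testis mean as a description, with no test, the members differed in sign in E17.5 male PGC. Sox9 stood 2.50 and Dhh 2.82 log2 units above testis. Ptgds (-1.37), Clu (-0.79), Cst9 (-1.16) and Aard (-1.28) stood below it, with SE of 1.02, 0.69, 1.07 and 0.48. Of these only Aard was parted from testis by more than 2 SE. Strain, slide and scan day differ between testis and PGC and cannot be told apart from the sample type. The signs of all 6 differences were the same under each of the 4 other scalings or background corrections. At E13.5 the differences from testis were 0.44 for Sox9, 0.83 for Dhh, with 1 of 2 male arrays well above background, and -1.83 to -3.64 for the others. Their signs held under the 4 alternatives too, but their sizes moved, to 0.86 to 1.31 for Sox9, 1.24 to 2.28 for Dhh and -1.02 to -1.48 for Aard.

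**Figure D3:**
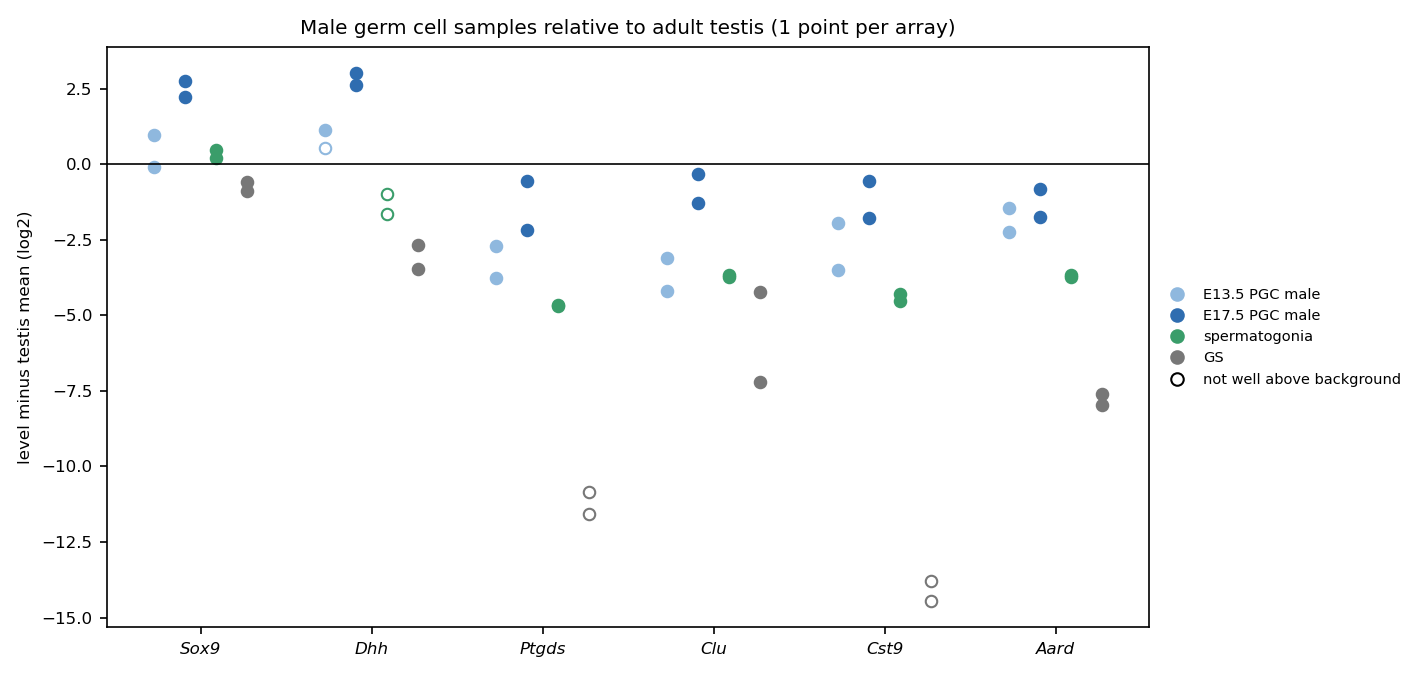
Level of each gene minus its testis mean (vertical axis, log2; line at 0) on the arrays of E13.5 and E17.5 male PGC, spermatogonia and GS cells, with open circles where the probe was not well above background. E17.5 male PGC lie above the line for Sox9 and Dhh and below it for Ptgds, Clu, Cst9 and Aard. GS cells lie below it for all 6 genes, least for Sox9.

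Of the cell lines, male and female EG cells differed in Sox9. Each sex stands for 1 derivation, so sex cannot be told apart from the line. Sox9 read -4.94 and -5.58 in male and -7.99 and -10.11 in female EG cells, the last array not well above background. The difference was 3.79 ± 0.67 (limma adjusted p = 0.0149), in a comparison that called 0.371% of genes as higher. It was lost without EG male replicate 1 (3.47) or 2 (4.11) or EG female replicate 2 (2.73), and with the 4 arrays alone, normexp, quantile normalization, a common floor or the mean of all probes. None of Ptgds, Clu, Cst9 and Aard passed, with adjusted p from 0.288 to 1, although Cst9 was called as lower in males without EG female replicate 1 (-4.87). Dhh was not tested. Beside Sox9, the Wilms tumour transcription factor Wt1 (3.03 ± 0.57, adjusted p = 0.0198) and the VEGF receptor Flt1 (3.26 ± 0.56, adjusted p = 0.0129) were called as higher in male EG cells and Msln, a surface epithelium gene, as lower (-3.96 ± 0.71, adjusted p = 0.0152). The mesenchyme list summed to -0.24 and 0.64 on the male and -0.99 and -4.35 on the female EG arrays. The macrophage list summed to -0.82 and -3.44 on the male arrays, each with 6 of 6 genes well above background, and to -1.04 (6 of 6) and -8.52 (0 of 6) on the female arrays. The part of these lists in the Sox9 difference was not tested. In ES cells Sox9 read -7.19 and -8.37 in females and -8.53 and -6.46 in males.

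Genes of the same programmes were read from 12 further lists. Of 22 other Sertoli genes 18 were on the array, Amh not being matched through an accession. At E13.5 4 of the 11 tested were higher in males and 0 lower (median 1.98), beside 4.43% of all genes called as higher. They were Defb19, a beta-defensin gene (at least 38.8-fold, limma adjusted p = 0.00158), Mro, which encodes maestro (at least 12.6-fold, adjusted p = 0.0009), the androgen-making Hsd17b3 (at least 14.2-fold, adjusted p = 0.00219) and Wt1 (1.98 ± 0.57, adjusted p = 0.0317). At E17.5 12 of 13 were higher and 0 lower, with a median of 3.67 (8 genes at their bound), beside 29.4% of all genes called as higher. They were led by Defb19 (at least 103-fold), Mro (at least 45.8-fold), Hsd17b3 (at least 39.7-fold) and Cyp26b1, which breaks down retinoic acid (at least 15.7-fold). Their limma adjusted p were 3.11e-05, 1.34e-05, 6.16e-05 and 0.00149. At both stages a gene at its bound was tested through its bright sex alone, so the filter set its direction. From E17.5 males to spermatogonia 3 of 14 were lower and 0 higher, beside 6.81% of all genes called as lower. These 3 were Defb19 (-3.62 ± 1.12), Nr5a1 (-2.20 ± 0.43) and Wt1 (-2.13 ± 0.57). GS cells were lower than spermatogonia in 8 of 17, among them Defb19 (-6.20 ± 1.12) and Mro (-5.47 ± 0.88), beside 12.3% of all genes. In testis against spermatogonia 6 of 18 were higher, a count near the 24.7% of all genes called as higher. Among them was the nuclear receptor Nr0b1 (at least 22.4-fold), while Krt18, a keratin, was lower (-6.15 ± 0.43).

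The partners of Dhh and Ptgds were mostly dim. Of 6 hedgehog pathway genes on the array, 2 were tested at E13.5 and both were lower in males, the transcription factor Gli3 by -1.05 ± 0.32 and the signal transducer Smo by -1.03 ± 0.33 (limma adjusted p = 0.0428 and 0.0499). Both lay just inside the threshold, beside 1678 of 13782 genes called in either direction and 59.3% that did not overlap. With the compared groups fitted alone 0 genes were called, so both calls were lost there. At E17.5 Gli3 was higher in males (1.57 ± 0.32, adjusted p = 0.000835), and its sex difference changed by 2.61 ± 0.45 between the stages (adjusted p = 0.00057). Ptch1, the hedgehog receptor, was tested in neither comparison. No prostaglandin pathway gene of 8 was tested for sex at E13.5. At E17.5 Ptges, a prostaglandin E synthase, was at least 3.35-fold higher in males (adjusted p = 0.00795), 1 of 2 tested. GS cells held the cyclooxygenase Ptgs2 at -1.53 and -2.21, where spermatogonia and testis were not well above background, at least 30.5-fold over spermatogonia (adjusted p = 0.00107). Among 13 relatives of Sox9 in the SRY-related family, 0 of 5 were called for sex at E13.5, and Sox17 and Sox18 of 6 at E17.5 (at least 1.82-fold and 2.16-fold higher, adjusted p = 0.0239 and 0.0198). Over all genes 29.4% were called as higher in males at E17.5. Sry itself was not well above background on any male PGC array.

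Markers of other somatic cells were read beside these differences. For sex at E13.5, none of the Leydig genes could be tested, and no tested gene of the mesenchyme (0 of 7), endothelium (0 of 1), erythroid (0 of 1), macrophage (0 of 1) or surface epithelium (0 of 2) lists was called. Irx3 of 3 pregranulosa genes was lower in males (at least 2.78-fold, limma adjusted p = 0.000505). The summed level of the 6 members was -0.093 to 1.098 in E13.5 males and -3.63 to -3.47 in females. That of the 18 other Sertoli genes was 1.58 to 1.69 in males and 1.97 to 2.08 in females, higher in females. Such a sum follows the brightest probes of its list. For the other Sertoli genes it was 2.49 to 2.52 in E10.5 males, with 2 to 8 of 18 genes well above background. In testis it was 2.50 to 2.57 with all 18, so it does not measure Sertoli cell content. Summed levels were higher in males without overlap for the Leydig list (-4.29 to -4.20 against -7.04 to -5.67, with 2 of 5 genes well above background on 1 male array and 0 on the other arrays), the surface epithelium list (-3.16 to -2.78 against -4.05 to -3.78) and the mesenchyme list (-1.38 to -1.04 against -1.83 to -1.54). For mesenchyme genes 2 to 8 of 11 were well above background in males and 7 to 8 in females. The endothelium list overlapped, at -5.33 to -3.61 in males and -5.18 to -4.37 in females, and so did the macrophage list, at -4.94 to -2.69 and -5.53 to -4.38. Well above background were 0 of 7 endothelium genes on either male array and 1 to 3 in females. For macrophage genes it was 0 to 1 of 6 in males and 1 to 2 in females. These sums are mostly background and cannot show whether the sexes were equal. Foxl2, the ovarian somatic regulator, was well above background on no array of any group. At E17.5, where 29.4% of all genes were called as higher in males, other lists moved with sex as well. All 4 tested endothelium genes were higher in males, including Tie1 (at least 16.5-fold, adjusted p = 7.11e-05) and Flt1 (4.73 ± 0.56, adjusted p = 7.48e-06), and that list summed to -0.44 to -0.42 in males and -4.56 to -3.30 in females. Cyp11a1, the first enzyme of steroid synthesis, was higher by 3.26 ± 1.01 (adjusted p = 0.0142, 1 of 2 Leydig genes tested), with the Leydig list at -3.29 to -3.03 in males and -4.88 to -4.09 in females and its members Star and Lhcgr not well above background in either sex. The surface epithelium keratin Krt19 was higher by 2.37 ± 0.74 (adjusted p = 0.0151). None of the tested mesenchyme (0 of 10), erythroid (0 of 2), pregranulosa (0 of 3) and macrophage (0 of 1) genes was called. Summed levels at E17.5 were still higher in males without overlap for the mesenchyme list (0.72 to 1.03 against -0.75 to 0.44). So were the pregranulosa (-2.08 to -1.63 against -3.21 to -2.47) and surface epithelium lists (-1.60 to -1.41 against -3.62 to -3.525). The germ cell list was too (3.99 to 4.02 against 3.515 to 3.581). The macrophage list was also higher (-3.87 to -3.74 against -4.42 to -4.22), with 1 to 2 of 6 genes well above background. The erythroid list overlapped. Hba-a1, an alpha globin, stood at 1.45 to 4.02 in females and -0.21 to 1.79 in males. Of 9 germ cell genes 1 was called for sex at E13.5 (higher in males) and 5 at E17.5 (3 higher and 2 lower). The part of these cell types in the differences of the 6 members was not tested.

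Spermatogonia had the endothelium list at -0.01 to 0.17, with 0 of 6 tested genes called against E17.5 males, while the 6 members summed to -0.56 to -0.43 against 1.911 to 2.999. The Leydig list was lower in spermatogonia, at -5.21 to -5.03 against -3.29 to -3.03 in E17.5 males, with Cyp11a1 at -2.75 ± 1.01 (limma adjusted p = 0.0863), and so was the surface epithelium list, at -2.42 to -2.30 against -1.60 to -1.41. The mesenchyme list was higher, at 1.40 to 1.66 against 0.72 to 1.03. Its marker Pdgfra stood at -0.28 and 0.20 in spermatogonia and -1.29 and -1.13 in E17.5 males. In testis against spermatogonia 4 of 5 Leydig genes were higher, as 4 members were, beside 24.7% of all genes. The Leydig list summed to 0.28 to 0.77 in testis. In GS cells the mesenchyme list summed to 4.57 on replicate 1 and 1.30 on replicate 2, the same order as Clu on those arrays. There 4 of 6 endothelium genes were lower than in spermatogonia, beside 12.3% of all genes. The part of these lists was not tested.

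**Figure D4:**
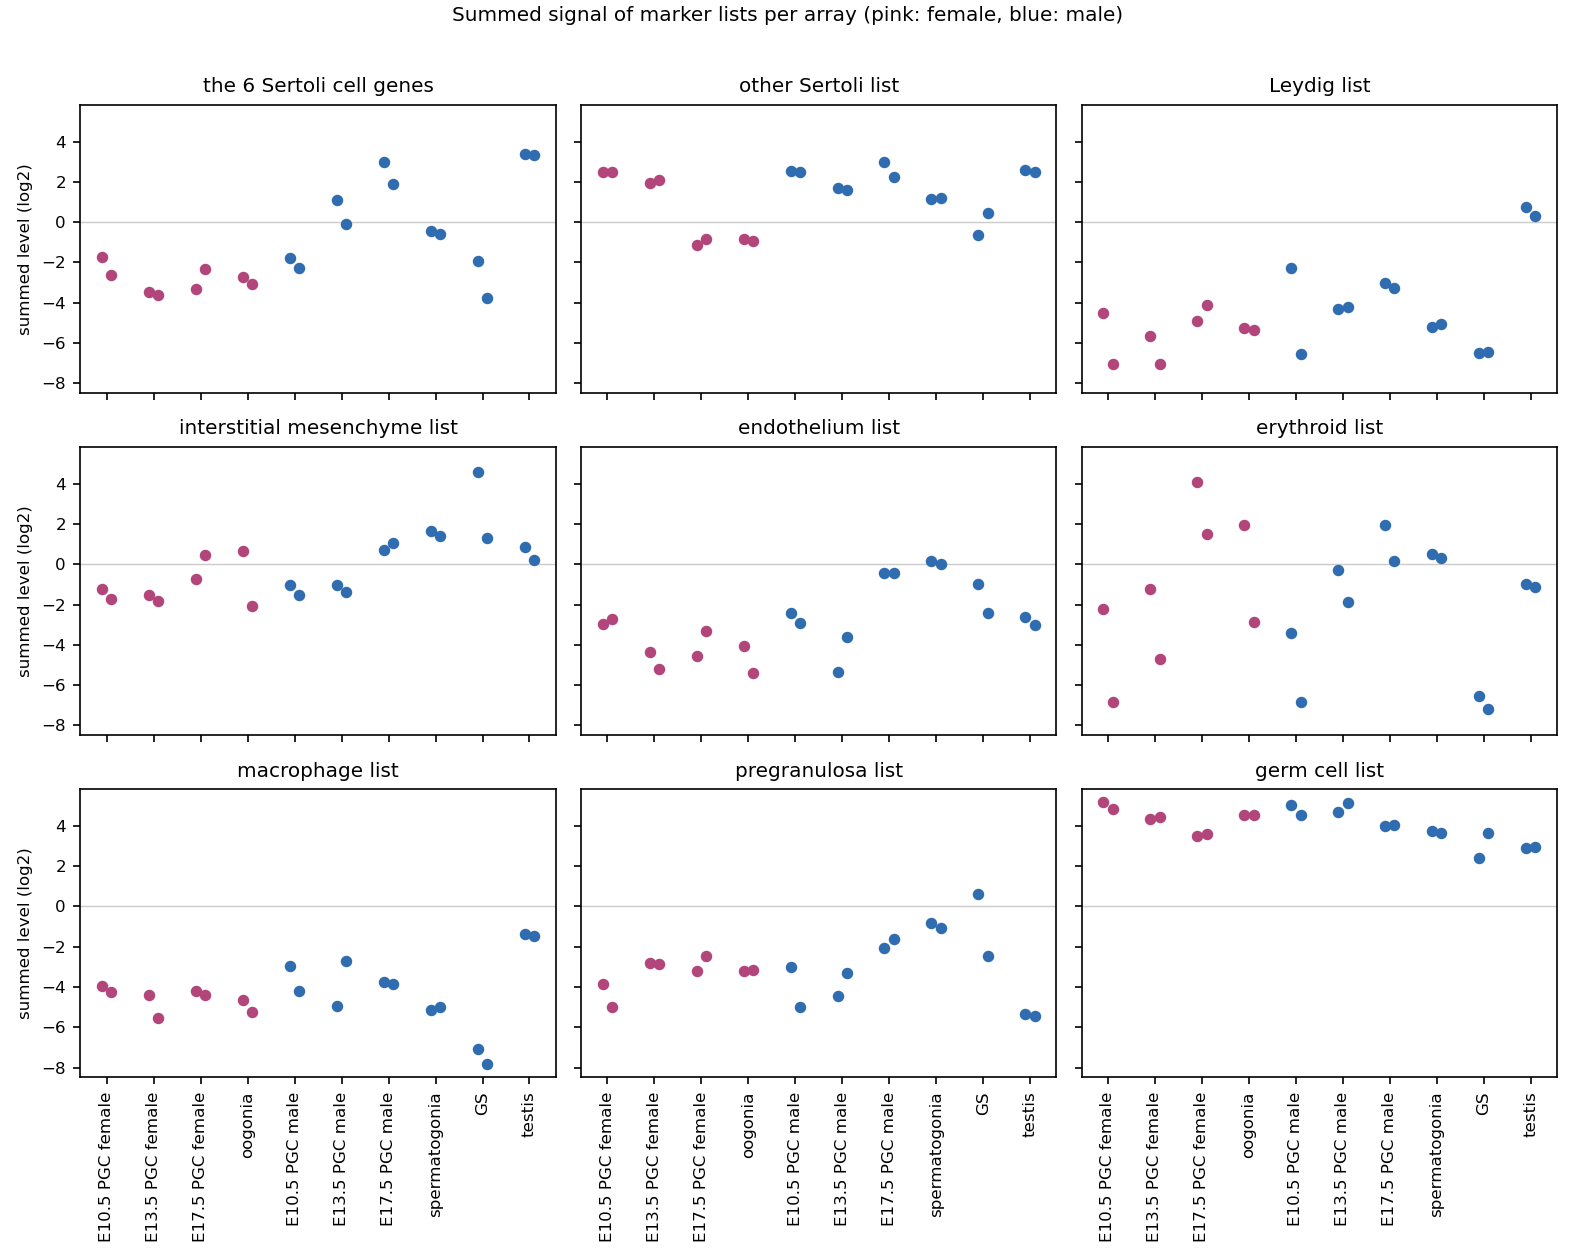
Summed signal of each marker list (vertical axis, log2 of the sum over its genes on the array) on every array of the PGC, oogonia, spermatogonia, GS and testis groups (horizontal axis), female in pink and male in blue. At E13.5 the 6 Sertoli cell genes and the Leydig and mesenchyme lists are higher in males, and the other Sertoli genes are higher in females. Of the mesenchyme list 2 of 11 genes were well above background on 1 of those male arrays. The endothelium list overlaps there, with 0 of its genes well above background in males, and at E17.5 it is higher in males. A sum follows the brightest probes of its list.

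Across the 14 group means the members resembled one another to different degrees. Pearson's r between pairs ran from 0.341 (Sox9 and Aard) to 0.945 (Ptgds and Cst9), over means that share arrays and scaling, and it is given as a description. Among 19555 genes with enough range, the named genes most like Sox9 were Gal (0.964), Asgr1 (0.917) and Rasl12 (0.916). For Dhh they were Cnga1 (0.959), Shbg (0.959) and Bag6 (0.94). Ptgds had Cst9 (0.945), Clu (0.924) and Defb19 (0.924), and Cst9 had Defb19 (0.947), Ptgds (0.945) and Etd (0.94). The named genes nearest to Clu were Ptgds (0.924), Gstm7 (0.914) and Rnf112 (0.914), and Aard had lower values throughout, with Klk1b26 (0.852), Clec4b1 (0.85) and Vav1 (0.847). These neighbours depended on the scaling. With a common floor for dim values, which left 2396 genes, the named genes nearest to Aard were Ptgds (0.977), Cst9 (0.965) and Defb19 (0.961), and Kazald1 was nearest to both Sox9 (0.955) and Dhh (0.93).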

How the data were processed

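RNA was labelled with Cy3 and hybridised to Agilent mouse arrays. Agilent Feature Extraction 10.5.1.1 gave the spot values, per the file headers and the submitters' processing notes, and its processed signal, a background-adjusted intensity, was used as deposited by the authors. The authors' deposited value table holds log2 values. Set against the scanner values it equalled log2 processed signal minus the array median (within 0.00251), and it served as an alternative.

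With R 4.3.3 and limma 3.58.1, 1417 control spots and 514 of 43803 probes marked non-uniform on any array were removed. On 16 arrays fewer than 50% of probes passed that call, so the 75th percentile was taken over probes well above background on all arrays. Accessions were matched to a RefSeq table (GRCm38.p6), which named 16759 probes with 13142 symbols and left 27044 unnamed. Of 3619 genes with several probes the one with the highest mean was kept. No spot was saturated, and the lowest signal well above background ran from -10.72 to -3.58 (log2). A mean per group was fitted to all 28 arrays (lmFit, eBayes, 14 residual degrees of freedom), so all groups share 1 estimate of the spread. The code was tested on simulated data. Promoter sequences are RefSeq's (GRCm38.p6).

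Same-numbered PGC arrays were paired in the data, since for every pair of PGC groups the replicate deviations correlated (0.306 to 0.796 over 6194 genes), and scan day was shared. Other groups gave -0.158 to 0.114. The alternatives were other scalings, background correction (normexp with offset 50 on median signals), filters, floors, probe rules, batch blocks and leaving out each array.

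The 6 genes, the lists and the comparisons were chosen with earlier results of these data known. The text names the members always, from each other list at most the 4 called genes with the largest differences per comparison, defining markers of other cell types and Sry, and the 3 named genes most like each member over group means. Amh, Pecam1, Csf1r and Hbb-bh1 were not matched by accession, and the Cyp17a1 probe was non-uniform and not tested.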

Additional observations from a re-analysis of the deposited data

Results flagged for a closer look

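The sex difference of 4 members changed between stages by a test of the change itself (limma, all 28 arrays). From E10.5 to E13.5 the fitted change of male minus female PGC was 4.07 for Sox9, 6.29 for Ptgds and 3.92 for Clu on the log2 scale. The values of Sox9 and Ptgds are no measured sizes, since Ptgds was well above background in neither sex at E10.5 and Sox9 on 1 of 2 arrays. From E13.5 to E17.5 the change was 2.07 for Aard. Each of these 4 calls was lost without single arrays, as given beside the values above.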

How the results depend on the processing

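Over 282 recomputed counts of called members 189 stayed within 1.5 times and 93 moved. Of 1370 recomputed member differences 1117 kept direction and call, 194 lost the call, 33 gained it and 26 reversed. The cause of these changes was not tested, except that fewer arrays or genes were fitted where stated. The E17.5 sex count stayed at 6 throughout. Counts below run from the reported value to the alternative.

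With slide as a block, fitted on PGC arrays, 0 members were called for sex at E13.5 (from 5), for the change of the sex difference from E10.5 to E13.5 (from 3) and from E13.5 to E17.5 (from 1), and for both steps in males (from 3 and 2) and in females (from 1 and 2). With the compared groups alone the same 7 counts were 0, and so were those of spermatogonia against E17.5 males (from 5) and EG sex (from 1). Normexp gave 0 for both changes of the sex difference, the first step in males, both steps in females and EG sex. The deposited table gave 1 and 0 for the changes, 1 for the second male step, 0 and 0 for the female steps and 2 for spermatogonia against E17.5 males. No filter gave 0 and 0, 1, 0 and 0, and 3 for these. A common floor gave 1 and 4 for the changes, 4 for the second male step, 0 and 0 for the female steps, 1 for spermatogonia against oogonia, 0 for GS against spermatogonia and 0 for EG sex. The mean of all probes gave 1 for the first change, 1 for the second male step and 0 for EG sex. Slide as a random block (correlation 0.621) gave 5 for the first change, 4 for the second male step, 1 for the second female step, 0 for spermatogonia against E17.5 males, 1 for spermatogonia against oogonia and 2 for testis against spermatogonia. The percentile over all probes gave 0 for the second change, 1 for the second male step, 2 for the first female step and 3 for spermatogonia against E17.5 males, and quantile normalization 2, 2 (first female step), 3 for oogonia against E17.5 females and 0 for EG sex. With 1 array well above background sufficing, the first female step had 0 and spermatogonia against E17.5 males 3.

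Leaving out 1 array at a time, counts ran from 4 to 6 for sex at E13.5, 0 to 4 and 0 to 1 for the changes of the sex difference, 1 to 3 and 1 to 2 for the male steps, 0 to 0 and 0 to 1 for the female steps, 0 to 2 for spermatogonia and 0 to 1 for oogonia against E17.5 PGC, 2 to 3 for spermatogonia against oogonia, 4 to 4 for testis and 3 to 4 for GS against spermatogonia, 4 to 5 for testis against GS and 0 to 2 for EG sex. With 1 array left in a group, that array is assumed to vary like the others.

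The replicate block, for which PGC numbers pair the samples, changed no member count (5 for sex at E13.5, 0 at E10.5, 6 at E17.5) and no member's call.

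Reversed values were as follows. For sex at E10.5, Clu was 0.38 with normexp, 0.20 without male replicate 2 and 0.37 without female replicate 1 (-0.48 to 0.37 over all arrays left out), and Aard 0.19, 0.09 and 0.36 (-0.46 to 0.36). The second change of the sex difference of Ptgds was 0.42 (quantile), 1.08 (normexp), 0.18 (deposited table), 1.87 (common floor) and -0.98 to 0.71 without single arrays (above 0 without E17.5 male or female replicate 2, E13.5 male replicate 1 or E13.5 female replicate 2). For oogonia against E17.5 females Sox9 was 0.12 (quantile) and 0.24 (deposited table), and with normexp Ptgds was -0.21, Cst9 -0.91 and Aard -0.31. For spermatogonia against oogonia Aard was -0.41 in the deposited table. For testis against spermatogonia Dhh was -1.55 (normexp) and Sox9 0.075 (mean of all probes). For EG sex Clu was -0.083 (common floor) and -0.32 without female replicate 1 (up to 0.65 without others), and Ptgds -0.01 without male replicate 2 and -0.026 without female replicate 2 (up to 0.33).

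Genes called in all ranged over the settings from 0 to 3381 for sex at E13.5 (1678 reported), 0 to 80 at E10.5 (1), 3230 to 9783 at E17.5 (7965), 0 to 1416 (366) and 983 to 6581 (4413) for its changes, 0 to 2628 (1657) and 0 to 8110 (6515) for the male steps, 0 to 4615 (3524) and 526 to 5819 (4672) for the female steps, 0 to 3552 (1977) and 0 to 2961 (2545) for spermatogonia and oogonia against E17.5 PGC, 3761 to 9783 (8801) for spermatogonia against oogonia, 6569 to 21117 (12593) and 668 to 16810 (5992) for testis and GS against spermatogonia, 8148 to 17031 (14034) for testis against GS and 0 to 625 (150) for EG sex.

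Signal over background limits the low side, since Dhh was measured on 7 and Cst9 and Ptgds on 17 of 28 arrays.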
